A study of Ovis aries with 16 samples.

Results

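LPAR3 and PLCB4 are a lysophospholipid receptor gene and a phospholipase gene, and their DNA methylation was mapped in fetal longissimus dorsi (LD) muscle of sheep. Each gene was taken from its start to its end as listed by the study and was extended by 10000 bp on each side. All peaks of methylated DNA that overlapped these windows by at least 1 bp were used, which gave 1492 of the 6410742 peaks deposited for the 16 fetuses. Of these peaks, 112 lay in the LPAR3 window and 1380 in the PLCB4 window. Both genes were chosen because each holds a region that the study listed as differentially methylated between maternal diets, called the published diet region here.

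The 16 fetuses came from pregnant ewes that received either a hay diet (8 fetuses, called hay fetuses) or a corn diet (8 fetuses, called corn fetuses). Both diets were fed from mid-gestation until necropsy late in gestation and supplied equivalent metabolizable energy, and haylage was added to the corn diet. They were not matched in other nutrients. In the study's list, daily crude protein, methionine and choline were higher with hay, and folate was higher with corn. From DNA of whole LD muscle, fragments carrying methylated CpG sites were captured on a methyl-binding domain protein and sequenced. By the study's list of DNA pools, all hay fetuses and most corn fetuses were sampled together with their twin. Each diet thus had fewer ewes than fetuses, although the diet was given to the ewe. The labels give neither the dam nor the sex of each numbered sample, so the p-values below treat all fetuses as independent. Each n counts fetuses and not ewes, and p-values that ignore shared dams can be too small. A fetus is named by its diet and its sample number, and these numbers do not pair fetuses across diets.

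LPAR3 is a G protein-coupled receptor for lysophosphatidic acid, a small phospholipid that acts outside the cell as a signal. PLCB4 is a phosphoinositide-specific phospholipase C of the beta class, the class that G proteins of the Gq family switch on. Receptors of this kind can signal through Gq to such enzymes, which split a membrane phosphoinositide into inositol trisphosphate, which releases stored calcium, and diacylglycerol, which activates protein kinase C. In mammals, methylation is common in the bodies of genes and usually absent from active CpG-rich promoters. The peak lists hold no expression values, so neither the activity of the genes nor the tissue label could be checked against RNA.

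LPAR3 (ENSOARG00000014058) lies on chromosome 1 from 61224453 to 61279188 in the Oar_v3.1 genome and is 54.7 kb long. PLCB4 (ENSOARG00000009536) lies on chromosome 13 from 1577279 to 1971719 and is 394.4 kb long. The nearest protein-coding genes in the RefSeq order of ARS-UI_Ramb_v3.0 are SSX2IP and MCOLN2 for LPAR3, and LOC105613810 and LAMP5 for PLCB4. The strand of each gene is not given in the sources used here, so positions are given from the end with the lower coordinate. The study places the LPAR3 diet region in the second intron and the PLCB4 diet region in the sixth intron.

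The number of peaks per fetus over the whole genome ranged from 261331 to 519923 and the bases under them from 158.1 to 288.1 Mb. The 5 fetuses with the most peaks were hay 15, corn 7, corn 4, hay 8 and hay 16, in that order. The median peak width over the genome was 283.2 ± 37.1 bp (SD, n = 8) in hay and 350.8 ± 89.3 bp (SD, n = 8) in corn (two-sided exact permutation test, p = 0.071). Sequencing depth is unknown, because the files give peaks and not reads. A fetus may therefore lack a peak through shallow sequencing or through little methylation, and weak methylation in all cells cannot be told apart from methylation in few cells.

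Peaks of the 16 fetuses that shared at least 1 bp were merged, which gave 24 regions in the LPAR3 window and 174 in the PLCB4 window, of 706111 over the genome. A region was scored in each fetus by its highest peak score, which is −log10 of the deposited p-value, and by 0 where no peak was called. The median score over all peaks of the series was 1.47.

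LPAR3 had peaks in every fetus near both of its ends and few peaks between them. Of its 24 regions, 3 had a peak in all 16 fetuses (12.5%, against 12.5% of regions over the genome). Another 9 had a peak in 2 to 15 fetuses and 12 in a single fetus (50%, against 27.5% over the genome). Between the second and the third of the regions shared by all fetuses lay 48.0 kb without a fully shared region. Within it, no fetus had a peak for 17.8 kb, from 61235271 to 61253081.

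The first shared region of LPAR3 spanned the lower end of the gene (chromosome 1, 61223717 to 61225172, 1456 bp). Its score was 1.69 at the lowest, 2.86 at the median and 5.44 at the highest in hay fetuses, and 2.73, 3.80 and 5.07 in corn fetuses. The ranges of the diets overlapped, with the highest value in hay 10 and the lowest in hay 12. The mean score of 3.63 was above that of 86.7% of the 88488 regions shared by all 16 fetuses over the genome.

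The second shared region of LPAR3 lay 4.07 kb inside the gene (61228527 to 61229366, 840 bp). Hay fetuses scored 2.37, 3.14 and 5.63 (lowest, median and highest) and corn fetuses 2.14, 3.89 and 5.23. It had the highest mean of the gene, 3.69, above 87.6% of the fully shared regions of the genome. The third shared region (61277359 to 61278509, 1151 bp) ended 679 bp before the upper end of the gene and was weaker. Scores there were 1.25, 1.84 and 2.80 in hay and 1.54, 2.28 and 3.38 in corn, and its mean of 2.21 was above only 32.9% of fully shared regions.

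**Figure D1:**
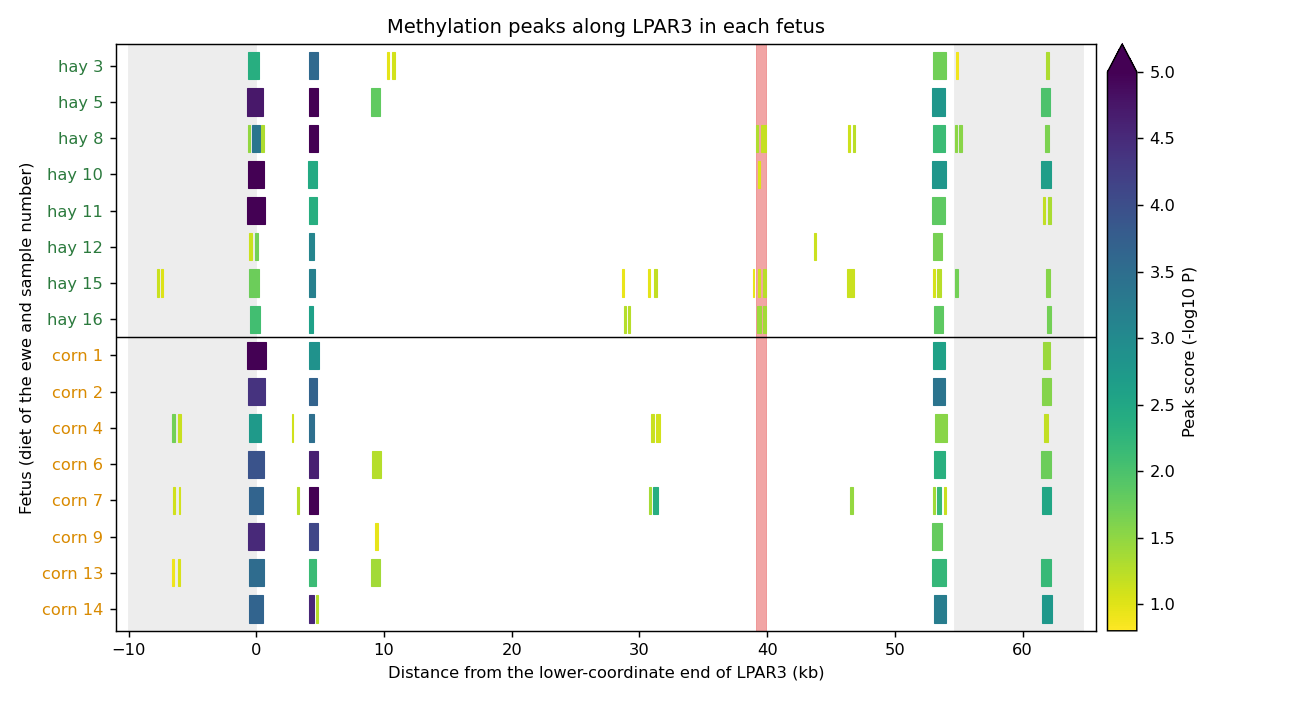
Each row is 1 fetus, and each block is a methylation peak placed by its distance in kb from the lower-coordinate end of LPAR3, coloured by its score (−log10 of the deposited p-value; the scale is capped at 5). Grey bands are the 10 kb flanks and the red band is the published diet region, which holds peaks of hay 8, hay 10, hay 15 and hay 16, while 3 columns of peaks run through all 16 fetuses.

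The variable regions of LPAR3 were carried by few fetuses. Of the 9, 8 had a peak in 3 or 4 fetuses, and the other had a peak in 14 fetuses (61285882 to 61286741, in the upper flank), where hay 12 and corn 9 had none. Hay 15 had a peak in 10 regions not shared by all fetuses, hay 8 and corn 7 in 6, and hay 16 and corn 4 in 5. Those 5 fetuses are also the 5 with the most peaks over the genome. The part of peak number in this pattern was not tested.

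Of the 12 regions of LPAR3 with a peak in a single fetus, 10 were found in a hay fetus (83.3%), against 60.1% of the single-fetus regions over the genome. In PLCB4 the share was 33 of 52 (63.5%). Hay 15 alone held 4 of the 12 in LPAR3. With the 5 peak-rich fetuses left out, 7 regions of LPAR3 had a peak in 1 of the remaining 11 fetuses and 3 were shared by all of these fetuses.

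The published diet region of LPAR3 (chromosome 1, 61263544 to 61264351, 808 bp) lay 39.1 kb from the lower and 14.8 kb from the upper end of the gene. It is described without a test, because the gene was chosen for it. Its peaks fell into 2 merged regions, from 61263544 to 61263972 with peaks in 4 hay fetuses and from 61263980 to 61264351 with peaks in 3 hay fetuses. In the former, hay 8 scored 1.29, hay 10 scored 1.02, hay 15 scored 1.11 and hay 16 scored 1.41. In the latter, hay 8 scored 1.17, hay 15 scored 1.24 and hay 16 scored 1.38.

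All 7 of these peaks scored under the median of the series, and no corn fetus had a peak there. The other 4 hay fetuses had none either, so the diets overlapped at a score of 0. Set against the other peaks of the same fetus, the highest of these was in hay 16, above 51.8% of its own peaks, and the lowest in hay 10, above 7.51%. The nearest fully shared regions were 34.2 kb below and 13 kb above, and the 5 other regions within 10 kb comprised 3 of a single fetus and 2 variable ones. In the study's bisulfite sequencing of pooled DNA, most CpG sites read in this diet region were methylated in both diets, significantly more in hay. A fetus without a peak there thus need not lack methylation.

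Outside the published diet region, LPAR3 had other regions with peaks in a few fetuses, some of them in 1 diet only. In the lower flank, the regions from 61217837 to 61218091 and from 61218280 to 61218565 had peaks only in corn 4, corn 7 and corn 13, with scores up to 1.70 and up to 1.15. At the upper end, the region from 61279166 to 61279435 had peaks only in hay 3, hay 8 and hay 15, with scores of 0.885, 1.53 and 1.69. Near the lower end, the region from 61233449 to 61234197 was found in hay 5, corn 6, corn 9 and corn 13. By limma on log2(scaled score + 1), the differences at these 4 regions (hay minus corn) were -0.45 (SE 0.244), -0.42 (SE 0.232), 0.49 (SE 0.256) and -0.22 (SE 0.269). None passed the test, with adjusted p from 0.919 to 1.0 over all 512238 regions tested.

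A mean of 9.56% of the PLCB4 window lay under peaks, against 4.94% of the LPAR3 window. Tiles of the same length over the genome had a median of 4.87% for PLCB4 and 4.57% for LPAR3, and 75.5% and 53.4% of tiles were below the gene. The mean over the whole genome was 8.69%, so PLCB4 lay close to that mean and LPAR3 under it. Merged regions were 42.0 per 100 kb in PLCB4, 32.1 in LPAR3 and 27.3 over the genome. The difference between the genes was not tested.

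Of the 174 regions of PLCB4, 18 had a peak in all 16 fetuses (10.3%), 104 in 2 to 15 fetuses and 52 in a single fetus (29.9%). When only peaks at or above the median score were kept, the fully shared regions fell to 5 in PLCB4 and to 2 in LPAR3. With all peaks, fully shared regions were 4.34 per 100 kb, against 4.01 in LPAR3 and 3.42 over the genome. They held 43.4 ± 6.4% (SD, n = 8) of the covered bases of PLCB4 in hay and 44.9 ± 3.6% (SD, n = 8) in corn. In LPAR3 they held 70.6 ± 17% (SD, n = 8) in hay and 72.4 ± 13% (SD, n = 8) in corn.

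**Figure D2:**
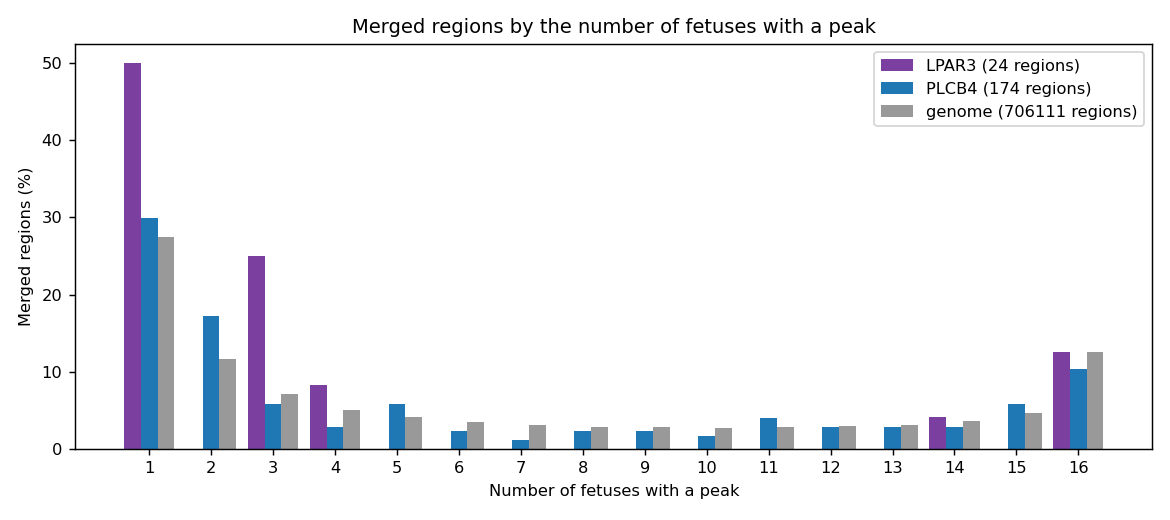
Bars give the share of merged regions (%) by the number of fetuses, 1 to 16, that had a peak there, for LPAR3 (24 regions), PLCB4 (174 regions) and the genome (706111 regions). LPAR3 had no region with a peak in exactly 2 fetuses, in 5 to 13 or in 15, whereas PLCB4 had regions in every class.

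As in LPAR3, a shared region lay over the lower end of PLCB4 (chromosome 13, 1576134 to 1577650, 1517 bp). Scores there were 1.58, 2.63 and 3.51 (lowest, median and highest) in hay and 1.52, 2.85 and 4.19 in corn. Another spanned the upper end (1970976 to 1971833, 858 bp) and had the highest mean of the gene, 3.30, above 80.2% of fully shared regions of the genome. Hay fetuses scored 1.61, 3.43 and 3.89 there, and corn fetuses 1.66, 3.33 and 5.91. The diets overlapped at both ends.

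Inside PLCB4 the strongest shared regions lay from 1621133 to 1622680, with a mean score of 3.12, and from 1639678 to 1641444, with a mean score of 2.77. At the former, hay fetuses scored 2.03, 2.83 and 3.46 and corn fetuses 2.25, 3.08 and 5.91, with corn 14 the highest. At the latter, hay fetuses scored 1.76, 2.61 and 3.28 and corn fetuses 1.25, 3.08 and 5.22, with corn 6 the highest and corn 4 the lowest. The widest shared region was 2297 bp long (1596692 to 1598988), and 7 fetuses had more than 1 peak in it. The weakest (1821186 to 1823433) had a mean of 1.53, above 0.88% of fully shared regions, and 14 fetuses had several separate peaks there.

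Peaks covered the largest share of bases toward the lower end of PLCB4. With the gene divided into 8 segments of 49.3 kb, the first had 16.1% and the second 13.7% of its bases under peaks (mean of 16 fetuses). The third had 5.08% and the fourth 5.39%, and the remaining segments lay between 5.87% and 10.3%. The first and second segments held 4 fully shared regions each and no other segment more than 2. The longest stretch without a peak in any fetus was 12.5 kb, and the longest without a fully shared region was 57.7 kb (1844578 to 1902303). The sixth segment, which holds the published diet region, had the most regions, 31, of which 1 was shared by all fetuses, 22 were variable and 8 had a peak in a single fetus.

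**Figure D3:**
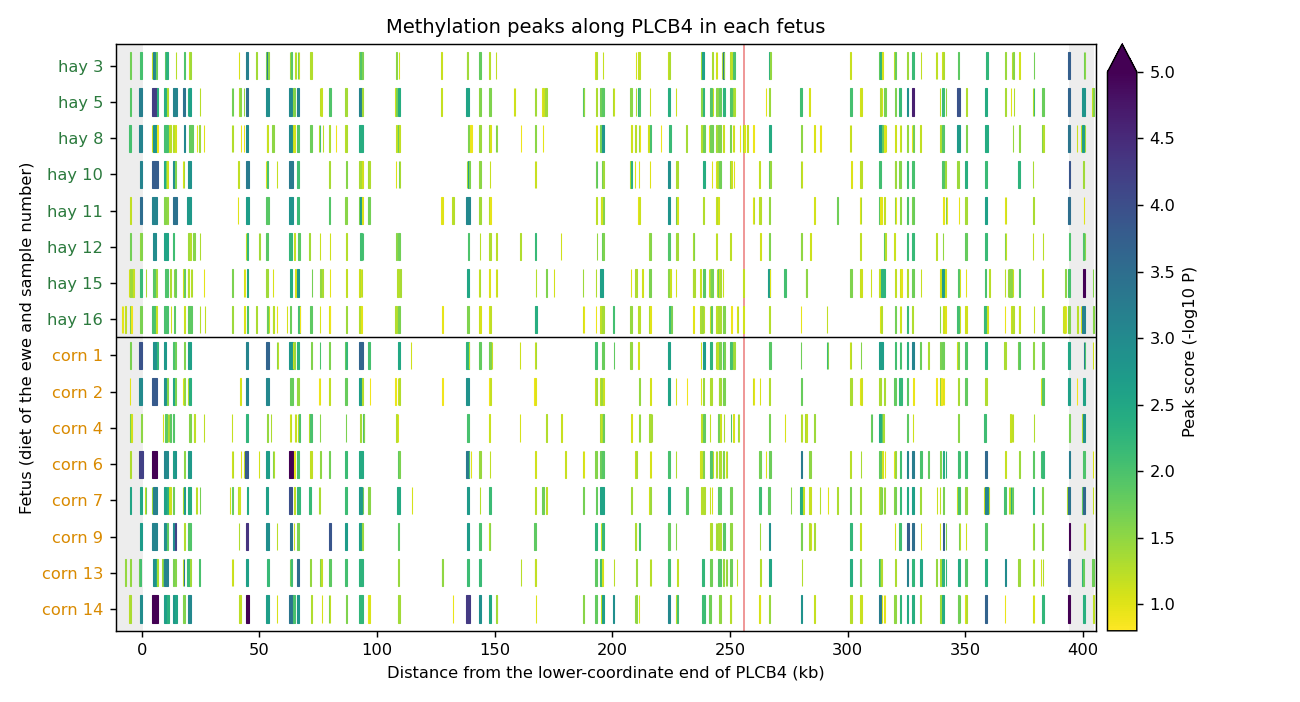
Each row is 1 fetus, and each block is a methylation peak placed by its distance in kb from the lower-coordinate end of PLCB4, coloured by its score (−log10 of the deposited p-value; the scale is capped at 5). Grey bands are the 10 kb flanks and the thin red line at 255.6 kb is the published diet region. Columns shared by all 16 fetuses are closest together in the first 98.6 kb.

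In 20 regions of PLCB4, a peak was found in 13 to 15 fetuses. Corn 4 had no peak in 10 of these 20, more than any other fetus, and hay 3 and hay 11 had none in 5 each. Over all fetuses of a diet, peaks were missing 18 times in hay and 17 times in corn. Corn 4 also had the fewest covered bases of PLCB4 among all fetuses, 24878, although it had the third most peaks over the genome.

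The published diet region of PLCB4 (chromosome 13, 1832872 to 1833103, 232 bp) lay 255.6 kb from the lower and 138.6 kb from the upper end of the gene, and is likewise given without a test. Peaks were called there in hay 8 (score 1.38), hay 15 (1.19) and hay 16 (1.08). No corn fetus and none of the other 5 hay fetuses had a peak. All 3 scores were under the median of the series, and they were above 42.2% of the own peaks of hay 8, 27.7% of those of hay 15 and 14.4% of those of hay 16. A region shared by all fetuses lay 9.44 kb below it and another 10.5 kb above it. The study's bisulfite sequencing of pooled DNA found the diet region highly methylated in hay and in corn, without a significant difference. A fetus without a peak there thus need not lack methylation.

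Hay 8, hay 15 and hay 16 thus carried the peaks of both published diet regions, together with hay 10 at LPAR3. These 3 fetuses were the fourth, the first and the fifth of all 16 by number of peaks. In the PLCB4 window hay 8, hay 15 and hay 16 had peaks in 67, 65 and 63 regions not shared by all fetuses, against 61 in corn 7 and at most 56 in any other fetus. Over the genome, 827 of the 50635 regions with a peak in exactly 3 fetuses had it in hay 8, hay 15 and hay 16. This was the ninth most frequent of the 560 possible sets of 3 fetuses, whose median was 35 regions, and the most frequent of the 56 sets of 3 hay fetuses. All 10 of the most frequent sets were made up of hay 3, hay 8, hay 15, hay 16, corn 4 and corn 7. The part of peak number at the published diet regions was not tested.

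The question of the design was whether methylation of the genes differed with the diet of the ewe. The LPAR3 window had 1653, 3713.5 and 4347 covered bases (lowest, median and highest) in hay fetuses and 2986, 3740.5 and 4620 in corn fetuses. The ranges overlapped, and hay 12 was the lowest of all fetuses. The mean was 3527.5 ± 900.2 bp (SD, n = 8) in hay and 3856.6 ± 544.1 bp (SD, n = 8) in corn, a difference of -329.1 bp, less than the SD of either diet (two-sided exact permutation test, p = 0.417). Without hay 12 it shrank to -61.3 bp (exact permutation test, p = 0.825), and per covered Mb of the genome the means were 16.4 bp for hay and 16.6 bp for corn fetuses (exact permutation test, p = 0.904). Adjusted over 34599 genome tiles of the same length and the window itself, p was 1.0. Of those tiles, 4.3% had an unadjusted p under 0.05 in the same exact permutation test and none passed an adjusted p of 0.1. The window holds the published diet region, for which the gene was chosen. With the bases of that region left out, the means were 3313.6 bp in hay and 3856.6 bp in corn. That difference was -543.0 bp (exact permutation test, p = 0.161).

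In the PLCB4 window, covered bases were 26816, 38738 and 51688 in hay and 24878, 41936 and 49525 in corn. Hay 8, hay 5 and corn 7 were the highest and corn 4, hay 12 and hay 3 the lowest, and the ranges overlapped. The mean was 38790.1 ± 9864.3 bp (SD, n = 8) in hay and 40425 ± 7945 bp (SD, n = 8) in corn, a difference of -1634.9 bp, less than the SD of either diet (two-sided exact permutation test, p = 0.714; adjusted p = 0.932 over 6230 tiles). Here 2.68% of tiles had an unadjusted p under 0.05 and none passed an adjusted p of 0.1. Relative to the bases covered over the genome, the direction turned, with 179.1 bp per covered Mb in hay against 173.3 for corn fetuses (exact permutation test, p = 0.663). It also turned without hay 3 (66.6 bp) or without hay 12 (75.7 bp), and without corn 4 the difference was -3855.9 bp. With the bases of the published diet region left out, the difference was -1702.2 bp (exact permutation test, p = 0.701). With only peaks at or above the median score it was -6285.8 bp (exact permutation test, p = 0.153).

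The number of peaks gave the opposite direction from covered bases in both windows, and neither difference exceeded the spread within the diets. LPAR3 had 5, 6 and 15 peaks (lowest, median and highest) in hay and 4, 5 and 12 in corn, with means of 7.75 ± 3.81 and 6.25 ± 2.92 (SD, n = 8 each; exact permutation test, p = 0.435). PLCB4 had 68, 88.5 and 110 peaks in hay and 68, 82.5 and 101 in corn, with means of 88.9 ± 17.6 and 83.6 ± 9.8 (SD, n = 8 each; exact permutation test, p = 0.477). The median width of peaks in LPAR3 was 423.1 ± 247.3 bp (SD, n = 8) in hay and 653.8 ± 248.8 bp (SD, n = 8) in corn. In PLCB4 it was 261.5 ± 20.3 bp (SD, n = 8) in hay and 317.5 ± 93.6 bp (SD, n = 8) in corn. When only peaks at or above the median score were counted, the difference in PLCB4 peaks turned to -8.13, with means of 36.4 for hay and 44.5 for corn fetuses (exact permutation test, p = 0.161). Without the 5 peak-rich fetuses it was -3.17 (exact permutation test, p = 0.615).

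**Figure D4:**
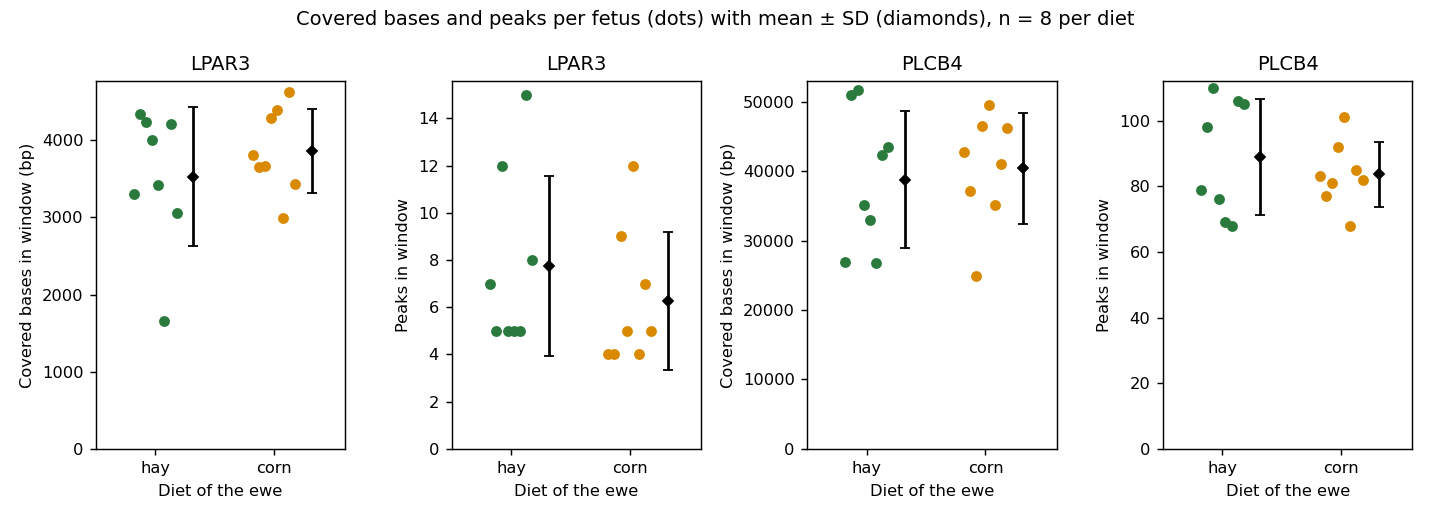
Dots are single fetuses (8 hay, 8 corn), and diamonds with bars are the mean and SD, for covered bases (bp) and number of peaks in the windows of LPAR3 and PLCB4, on axes from 0. The diets overlap in all 4 panels, and hay 12 lies alone at 1653 covered bases in LPAR3.

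Regions were then compared one by one with limma, fitted over all 512238 merged regions of the genome with a peak in at least 2 fetuses. Tested regions numbered 12 in LPAR3 and 122 in PLCB4. At an unadjusted p under 0.05, 1 region of LPAR3 (higher in hay) and 1 of PLCB4 (higher in corn) were called, against 3.16% of all regions (1.43% higher in hay and 1.73% higher in corn). The LPAR3 region was a piece of the published diet region, from which nothing is read. Outside the published regions, limma called 0 of 10 in LPAR3 and 1 of 121 in PLCB4. No region of either gene reached an adjusted p of 0.1, which 0.000586% of all regions (3) did, and the smallest adjusted p was 0.919. Fisher's exact test, applied to whether a fetus had a peak or not, called none of either gene at an unadjusted p under 0.05, against 0.59% of all regions. The LPAR3 outcome was fixed in advance and is not read. Its tested regions had a peak in 3, 4, 14 or 16 fetuses, and at these counts the test cannot reach that p. In PLCB4 the test could reach it only at regions with a peak in 5 to 11 fetuses. Most tested regions of PLCB4 lay outside that range, so little is read from its outcome either.

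The called region of PLCB4 lay 279.9 kb from the lower end (chromosome 13, 1857169 to 1858078, 910 bp) and was higher in corn. All 8 corn fetuses had a peak there, with scores of 1.29, 1.74 and 3.28 (lowest, median and highest), and 5 of 8 hay fetuses, with scores up to 2.09. Hay 3, hay 11 and hay 15 had none, and hay 5 was above 5 of the corn fetuses. The difference on the log2(scaled score + 1) scale was -0.66 (SE 0.245; limma unadjusted p = 0.00864, adjusted p = 0.919). With each fetus left out in turn, the limma unadjusted p ran from 0.00336 to 0.0252. With covered bases in place of the score, the region no longer passed (limma unadjusted p = 0.0554), and the 1 region of PLCB4 called was then another, from 1811537 to 1812182 and higher in hay (limma unadjusted p = 0.0475, adjusted p = 0.801).

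At 1 region of PLCB4 (1663602 to 1664546, 945 bp) the unscaled scores of the diets did not overlap, as at 0.0115% of all regions tested. Corn fetuses scored from 1.61 to 2.70, and hay fetuses from 0 in hay 3 to 1.56 in hay 10. After scaling for the overall score level of each fetus, 6 hay fetuses lay above the lowest corn fetus, and no region of either gene separated the diets, against 0.00605% of all regions. The scaled difference was -0.38 (SE 0.205; limma unadjusted p = 0.0698, adjusted p = 0.919).

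Other variable regions of PLCB4 with the smallest p in each direction did not pass the test. Higher in hay were the region from 1811537 to 1812182, with peaks in hay 12, hay 15 and hay 16 and in no corn fetus (0.51, SE 0.262), and the region from 1727677 to 1728054, with peaks in hay 3, hay 8, hay 12, hay 15 and corn 14 (0.53, SE 0.323). Higher in corn was the region from 1959327 to 1959575, with peaks in corn 2, corn 6 and corn 13 (-0.42, SE 0.234). The limma adjusted p was 0.919 at each.

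Some regions had a peak in 3 or more fetuses of a single diet. In LPAR3, 3 of the 12 tested regions (25%) had such peaks in hay and none in corn fetuses, against 1.49% of all regions. Of these 3, 2 are the pieces of the published diet region, for which the gene was chosen, so nothing is read from this share. The remaining one is the region from 61279166 to 61279435. Another 2 of the 12 (16.7%), both in the lower flank and both with peaks in corn 4, corn 7 and corn 13, had them in corn alone, against 0.853%. In PLCB4, 2 of 122 (1.64%) had them in hay alone, the published diet region among them, and 1 (0.82%) in corn alone.

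The regions shared by all 16 fetuses did not separate by diet in either gene. Unscaled, the mean score was higher in corn at 3 of 3 regions in LPAR3 and at 18 of 18 in PLCB4, as at 87.7% of fully shared regions over the genome. After scaling, it was higher in corn at 2 of 3 and 8 of 18, against 49.4%. Scaled differences ran from -0.10 to 0.07 in LPAR3 and from -0.15 to 0.15 in PLCB4 on the log2(scaled score + 1) scale, with smallest limma unadjusted p of 0.442 and 0.345. Their median SE was 0.131 and 0.155. Over all tested regions, the mean was higher in hay at 6 of 12 in LPAR3 and at 69 of 122 in PLCB4 (56.6%), against 53.9% over the genome. The median difference was 0.00065 in LPAR3, 0.03 in PLCB4 and 0.02 over the genome. These counts and medians include the published diet regions, which were higher in hay and for which the genes were chosen. No comparison with the genome is therefore drawn from them.

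**Figure D5:**
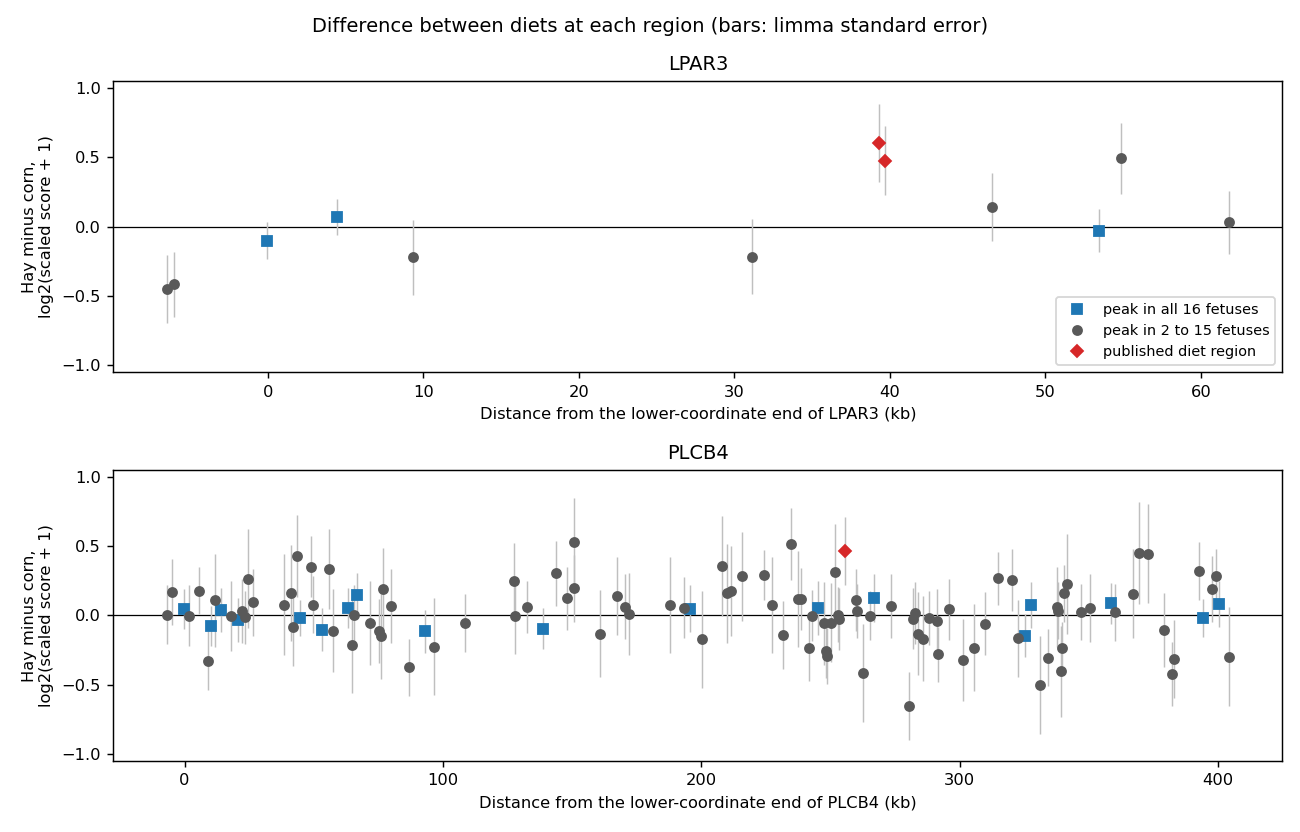
Points give the difference between diets (hay minus corn) in log2(scaled score + 1) at each tested region, placed by its distance in kb from the lower-coordinate end of the gene, with limma standard errors as bars. Blue squares are regions with a peak in all 16 fetuses and lie within -0.15 to 0.15, grey circles are variable regions, and red diamonds are the published diet regions, which had been chosen for their difference.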

How the data were processed

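Per the labels and the study's methods, reads were trimmed with Trimmomatic 0.33, aligned to Oar_v3.1 with BWA-mem 0.7.15 and cleared of duplicates with Picard 1.107, and ChIPseeqer called peaks in each fetus separately. The authors deposited 1 list per fetus with the position and 1 value of each peak, read here as its p-value from its range of 0 to 0.1352. No threshold or input is stated. The published diet regions came from DiffBind with edgeR on aligned reads, a step not repeated here. Gene and diet region positions came from the study's list of regions.

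Scores were −log10 of the p-value (0 set to 1e-100). Each fetus's highest score per merged region was divided by a factor (0.7647 to 1.383), the median of its ratios to the geometric mean at the 88488 regions that all 16 fetuses shared, and log2(scaled score + 1) was tested with limma 3.58.1 in R 4.3.3 (eBayes with trend, Benjamini-Hochberg adjustment, threshold 0.1). Covered bases and peaks were tested with the exact permutation test over 12870 assignments, whose smallest p is 0.0001554, and counts of fetuses with a peak with Fisher's exact test. Limma was also run on real regions with the fetuses shuffled within each region and a known shift added to some of them. Other steps ran in Python 3.11.15 with pandas 2.3.3, scipy 1.17.1 and numpy 2.4.6.

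Regions named in the text were the published diet region, the 4 highest and the widest of those shared by all fetuses, those nearest the ends of the gene, and, among those with a peak in 2 to 15 fetuses, the 3 with the smallest limma p in each direction and the 2 with the largest difference in the number of fetuses. The longest gaps, the weakest shared region and the LPAR3 region of 14 fetuses were singled out after their values were seen. Members and lists were chosen with earlier results of these data known. No annotation of Oar_v3.1 was used here, so exons and other genes of the pathway were not analysed.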

Additional observations from a re-analysis of the deposited data

Results flagged for a closer look

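Among 28 groups of 8 fetuses checked for a fetus far from the others (Dixon's test at the 95% level), 2 had one, where chance gives about 1.4. Corn 4 had 114.0 bases of PLCB4 under peaks per covered Mb of its genome, and the other corn fetuses had 169.1 to 193.6. Corn 9 had a log2 scaled score of 1.40 at the widest shared region of PLCB4 (from 1596692), and the other corn fetuses had 1.63 to 1.79.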

How the results depend on the processing

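Depth is unknown, and every peak of both published diet regions is lost when only peaks at or above the median score are kept. No paired analysis was possible because the sample numbers are not shared between diets. The difference in covered bases of LPAR3 kept its direction under every alternative run, from -453.5 to -61.3 bp with each fetus left out in turn, and so did its difference in peaks, from 0.464 to 2.32. Without the bases of the published diet region, covered bases of LPAR3 differed by -543.0 bp. The peak numbers with a fetus left out include the peaks of that region, all in hay fetuses. For PLCB4, covered bases ran from -3855.9 to 75.7 bp with a fetus left out, turning without hay 3 (66.6 bp) and hay 12 (75.7 bp), and were 5.86 bp per covered Mb of the genome, also turned. The difference grew to -6285.8 bp with only peaks at or above the median score (exact permutation test, p = 0.153). Without the 5 fetuses with the most peaks it was -6928.3 bp (exact permutation test, p = 0.16). PLCB4 peaks ran from 2.23 to 8.23 with a fetus left out, and turned to -8.13 with only peaks at or above the median score and to -3.17 without the 5 fetuses with the most peaks, an alternative added after seeing the data. None of these differences had an exact permutation p under 0.05. Regions of PLCB4 shared by all 16 fetuses fell to 5 with only peaks at or above the median score, and those of LPAR3 to 2. Regions with limma p under 0.05 ran from 0 to 3 in LPAR3 and from 1 to 3 in PLCB4 with a fetus left out. These counts include the published diet regions, from which nothing is read. Without hay 5, for example, both pieces of the LPAR3 diet region (limma unadjusted p = 0.0241 and 0.0452) and the PLCB4 diet region (limma unadjusted p = 0.0478) were counted. In LPAR3 the called regions numbered 2 with a pseudocount of 5, 0 without the filter on fetuses and 0 when a peak in 8 or more fetuses was required. Fisher's exact test called 0 there, which was fixed in advance by the numbers of fetuses with a peak. In PLCB4 the called regions numbered 1 with covered bases in place of the score, but a different region, 2 unscaled, 2 with a pseudocount of 5 and 0 by Fisher's exact test. Fisher's exact test could not have called most of the PLCB4 regions at their numbers of fetuses with a peak. Over the genome, regions with a limma adjusted p under 0.1 numbered 46 unscaled, 11 with a pseudocount of 5 and 0 when a peak in 8 or more fetuses was required, and the cause of these shifts was not tested. The PLCB4 region whose diets did not overlap unscaled was lost with scaled scores (0), an overlap count also added after seeing the data.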
